A study of Saccharomyces cerevisiae with 12 samples.

Results

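Budding yeast divides by closing an actomyosin ring at the bud neck and marks its next bud site there. The data below are those of 9 genes of these steps: *HOF1*, *MYO1*, *IQG1*, *CYK3*, *INN1* and *MLC1* of the cytokinesis machinery, and *BUD3*, *BUD4* and *AXL2* of the axial bud-site landmark. They were taken by their gene identifiers (in that order YMR032W, YHR023W, YPL242C, YDL117W, YNL152W, YGL106W, YCL014W, YJR092W and YIL140W) from the 7126 genes listed for each library. The choice was made with earlier results of these data known. The series holds RNA sequencing of Saccharomyces cerevisiae strains MP 384, labelled MATa, and LBHY29, labelled MATα-playing-a. Each strain was grown to log phase at 30 °C in YPD with 0.1% BSA and was harvested either without pheromone or after 2 h with 10 nM α-factor, the mating pheromone of α cells. This gives 4 groups of 3 biological replicates, 12 libraries in all. Per the growth protocol the stimulated cells were what remained of a culture after its unstimulated sample had been taken. The labels give no genotype beyond the mating type names, and each mating type is represented by a single strain, so that mating type and strain background cannot be told apart.

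As background, the contractile ring is built from type II myosin, actin and the IQGAP protein Iqg1 on a collar of septins. Its closure is coupled to a chitin septum laid down by Chs2, with Hof1, Inn1 and Cyk3 joining the ring to the membrane and to that enzyme. Bud3 and Bud4 mark the old division site, and together with the transmembrane protein Axl2 they direct the next bud next to it, in the axial pattern of haploid cells. Several genes of these steps are known to be transcribed in a wave at the G2/M transition by forkhead proteins with Mcm1 and Ndd1. Cells that respond to α-factor stop in G1 and grow a mating projection in place of a bud.

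All 9 genes are on the nuclear chromosomes, and the files' coordinates for them equal those of the R64 reference. *HOF1* lies on chromosome XIII from 335298 to 337307, *MYO1* on VIII from 151666 to 157452, *IQG1* on XVI from 90622 to 95109, *CYK3* on IV from 248581 to 251238 and *INN1* on XIV from 346313 to 347542. *MLC1* lies on VII from 306560 to 307009, *BUD3* on III from 96281 to 101191, *BUD4* on X from 598735 to 603078 and *AXL2* on IX from 85366 to 87837. *IQG1* is on the minus strand and the other 8 are on the plus strand. *AXL2* alone overlaps another listed gene, YIL141W, and, with read strand not given, reads of the overlap cannot be assigned to either; YIL141W was at 32.6 to 40.5 FPKM in the stimulated MATa libraries and at 79.5 to 95 in the unstimulated ones.

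The sequences before the start codon were searched on both strands for motifs of regulators of this phase of the cycle and of mating, and those shown carry the matches. The forkhead letters GTAAACA stood within 300 bases of the start codon in 5 of the 9 genes, against 420 of 6000 nuclear protein-coding genes of the R64 reference (7.0%). They began at position -200 in *HOF1*, -181 in *BUD4*, -171 in *MYO1*, -169 in *IQG1* and -162 in *BUD3*, counted back from the base before the start codon, and read on the strand of the gene in all 5. Widening the window to 500 bases added no further match among the 9, against 10.3% of all genes. The first pair of sequences gives all 300 bases before *HOF1* (chrXIII:334998-335297, plus strand) and *BUD4* (chrX:598435-598734, plus strand), the genes with the largest falls; the next 3 give 61 bases around the match in *MYO1* (chrVIII:151468-151528, plus strand), *IQG1* (chrXVI:95245-95305, minus strand) and *BUD3* (chrIII:96092-96152, plus strand). They are from RefSeq's R64 genome, 5′ to 3′ on the strand of the gene, with the forkhead letters in capitals.
HOF1: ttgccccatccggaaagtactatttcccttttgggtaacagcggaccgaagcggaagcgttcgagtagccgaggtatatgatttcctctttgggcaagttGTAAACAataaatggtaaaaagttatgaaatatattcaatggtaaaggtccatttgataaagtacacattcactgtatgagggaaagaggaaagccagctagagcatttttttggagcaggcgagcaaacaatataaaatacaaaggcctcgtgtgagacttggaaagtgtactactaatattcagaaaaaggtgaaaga
BUD4: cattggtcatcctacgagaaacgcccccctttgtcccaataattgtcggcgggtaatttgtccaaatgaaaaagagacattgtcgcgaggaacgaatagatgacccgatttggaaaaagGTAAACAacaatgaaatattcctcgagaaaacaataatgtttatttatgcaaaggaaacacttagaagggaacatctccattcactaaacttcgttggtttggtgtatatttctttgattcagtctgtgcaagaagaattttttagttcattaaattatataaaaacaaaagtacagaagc
MYO1: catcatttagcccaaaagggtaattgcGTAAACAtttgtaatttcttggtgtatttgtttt
IQG1: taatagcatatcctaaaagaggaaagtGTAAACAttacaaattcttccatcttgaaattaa
BUD3: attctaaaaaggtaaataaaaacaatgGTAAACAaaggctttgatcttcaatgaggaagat

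Of the other 4 genes none held the forkhead letters. *AXL2* held the MCB letters ACGCGT, which mark genes of the G1/S wave, at positions -365 to -360 (chrIX:84974-85033, plus strand, with those letters in capitals); 5.42% of all genes hold them within 500 bases. *MLC1* held the pheromone response element TGAAACA, the letters bound by the mating factor Ste12, at positions -92 to -86 (chrVII:306441-306501, plus strand), and 7.2% of all genes hold them within 300 bases.
AXL2: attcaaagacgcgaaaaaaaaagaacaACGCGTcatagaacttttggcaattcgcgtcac
MLC1: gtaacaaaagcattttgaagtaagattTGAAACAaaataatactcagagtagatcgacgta
*INN1* held TGAAACA on the opposite strand at -487 to -481, which is within its divergent neighbour *GIM3*, 254 bases away. No Mcm1 site, in the sense of the motif searched, was found in the 9 windows, against 4.22% of all genes within 500 bases. Such matches describe letters only and were not tested for binding.

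**Figure D1:**
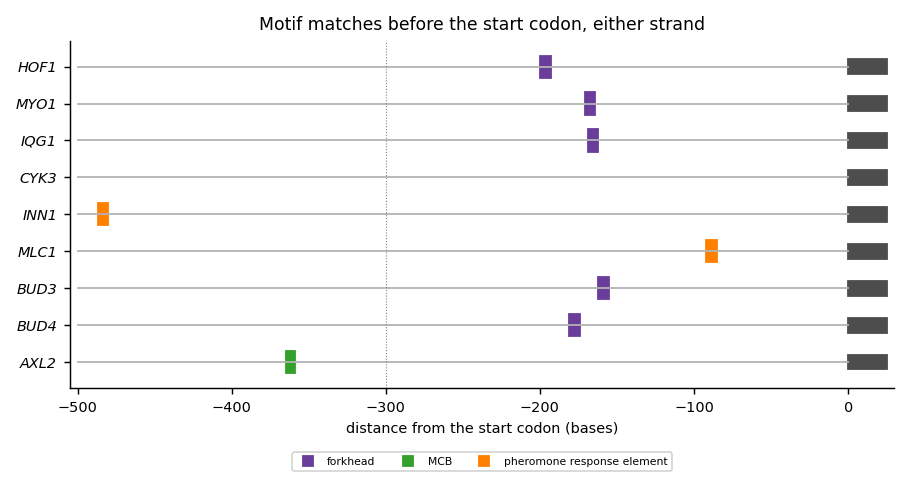
Motif matches on either strand in the 500 bases before the start codon of each gene; the x axis is the distance from the start codon in bases, dark boxes stand for the start of the coding sequence and the dotted line marks 300 bases. The forkhead matches of *HOF1*, *MYO1*, *IQG1*, *BUD3* and *BUD4* begin between -200 and -162.

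Values are FPKM as the authors deposited them, a level per length of gene. Depth per library is unknown, since the files hold no read counts; 574 to 752 genes were at 0 in a library, and none of the 9 genes was at 0 in any library. Summed FPKM ran from 5333000 to 5516000 in the stimulated libraries and from 5990000 to 6667000 in the unstimulated ones. The median gene was at 190.4 to 193.6 FPKM in the stimulated libraries and at 186.1 to 190.3 in the unstimulated ones. The pheromone markers moved as labelled: *FUS1*, a cell fusion gene, was at 156 to 196 FPKM in unstimulated and 3017 to 3219 in stimulated MATa libraries, and at 99.7 to 130 and 2993 to 3058 in the other strain. The α-factor receptor gene *STE2* was at 3254 to 4169 FPKM in unstimulated MATa libraries and at 512 to 633 in unstimulated MATα-playing-a libraries, and *SAG1*, the α-agglutinin gene, at 98.4 to 118 and at 1215 to 1514. Other genes specific to α cells went the opposite way to *SAG1*. *STE3*, *MF(ALPHA)1* and *MF(ALPHA)2* had means of 10.7, 6.7 and 78.8 FPKM in unstimulated MATa libraries. All were listed at 0 in every MATα-playing-a library, and the cause was not tested. *BAR1*, whose protease breaks down α-factor, was listed at 0 in all 6 MATa libraries and was at 27.8 to 28.2 FPKM in the unstimulated MATα-playing-a libraries; its part in the strain comparisons was not tested. A log2 change is the fitted difference of group means of log2(FPKM + 1) with its standard error, tested with limma and adjusted by Benjamini-Hochberg over all 6608 genes with a mean of at least 1 FPKM, all 9 among them; an adjusted p below 0.05 is called. The RNA is from whole cultures, so that fewer cells in a phase of the cycle and less RNA per cell cannot be told apart.

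With α-factor, 7 of the 9 genes fell in MATa cells and the same 7 fell in MATα-playing-a cells: *HOF1*, *MYO1*, *IQG1*, *CYK3*, *BUD3*, *BUD4* and *AXL2*. The background is high: 38.1% of all tested genes fell and 28.5% rose in MATa cells (66.6% passed in all), 39.1% fell and 29.8% rose in MATα-playing-a cells (68.9%), and 33.4% fell in both. *INN1* did not pass in either strain. *MLC1* rose in MATα-playing-a cells and did not pass in MATa cells, and the difference of its responses did not pass (0.13 on the log2 scale, adjusted p = 0.648). Every stimulated library was below every unstimulated one for 7 of the 9 genes in MATa cells (39.4% of all tested genes) and for 8 in MATα-playing-a cells (41.6%); the reverse held for 0 of the 9 (30.1%) and for 1 (32%). The median log2 change of the 9 was -0.66 in MATa and -1.02 in MATα-playing-a cells, beside -0.09 and -0.10 over all tested genes. Falls of 1 or more on the log2 scale were seen in 2 of the 9 genes in MATa cells and in 5 of the 9 in MATα-playing-a cells, against 7.55% of all tested genes in each strain. These counts rest on values near that limit. Over all alternatives *AXL2* ran from -1.025 to -0.892 in MATa cells. In MATα-playing-a cells *MYO1* ran from -1.156 to -0.825 and *BUD3* from -1.185 to -0.874.

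**Figure D2:**
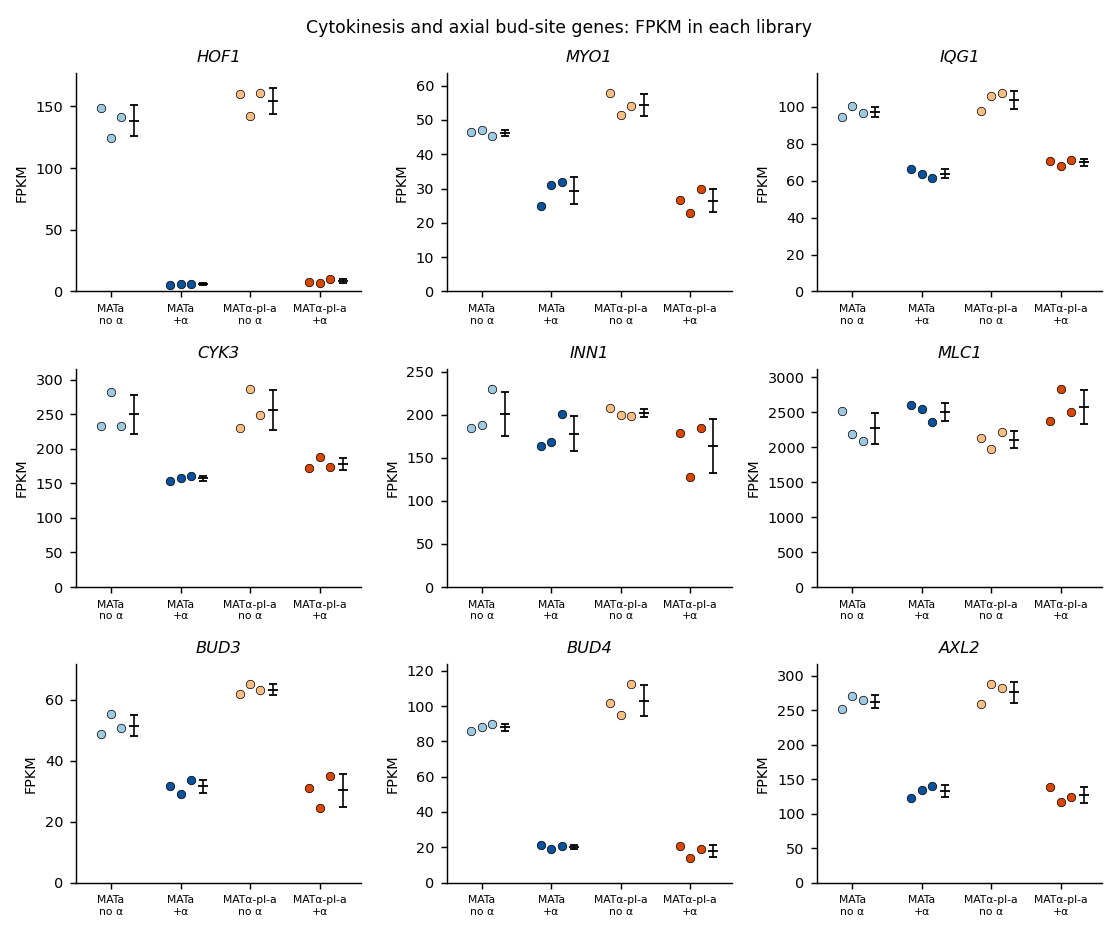
FPKM (y axis, from 0) of each gene in each of the 12 libraries, by strain and treatment (x axis; MATα-pl-a is MATα-playing-a); points are libraries, and the bar beside them is the mean ± SD of 3. *HOF1* drops from 125 to 161 FPKM without pheromone to 5.03 to 10.3 with it, and *MLC1* is at 1971 FPKM or more in all libraries.

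*HOF1* codes for the F-BAR protein that links the ring to the septum. Without pheromone the MATa libraries held it at 149, 125 and 141 FPKM, and with pheromone at 5.03, 6.05 and 6.34 FPKM. Levels in MATα-playing-a cells were 160.0, 142 and 161 FPKM without and at 8.06, 6.89 and 10.3 FPKM with α-factor. Every stimulated library was below every unstimulated one in both strains, with means 23.8-fold and 18.4-fold apart. The log2 change was -4.36 ± 0.14 in MATa cells (limma adjusted p = 7.3e-10) and -4.06 ± 0.14 in MATα-playing-a cells (adjusted p = 1.3e-09), the 37th and the 14th lowest of the 6608 genes tested. The size of the fall depended on the scale chosen for such low values, from -4.55 to -3.23 in MATa and from -5.20 to -3.16 in MATα-playing-a cells over all alternatives.

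*MYO1* codes for the heavy chain of the ring's type II myosin. It was at 46.5, 47.1 and 45.3 FPKM in unstimulated MATa libraries and at 24.8, 31.1 and 32.0 FPKM in stimulated ones. MATα-playing-a cells had it at 57.8, 51.5 and 53.9 FPKM without and 26.6, 23.0 and 29.7 FPKM with α-factor. The groups did not overlap in either strain, and the falls were smaller than that of *HOF1*, with log2 changes of -0.65 ± 0.12 in MATa (adjusted p = 7.1e-04) and -1.02 ± 0.12 in MATα-playing-a cells (adjusted p = 2.2e-05).

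*IQG1* codes for the IQGAP protein that recruits actin to the ring. It was at 94.5, 100.1 and 96.7 FPKM in unstimulated and 66.1, 63.6 and 61.6 FPKM in stimulated MATa libraries. The MATα-playing-a libraries were at 97.8, 106 and 107 FPKM without and at 70.7, 67.7 and 71.1 FPKM with α-factor. This was a fall of 1.52-fold and 1.48-fold in the means (log2 changes -0.60 ± 0.07 and -0.56 ± 0.07; adjusted p = 1.1e-05 and 1.8e-05), and coefficients of variation within the 4 groups were 2.62% to 4.93%.

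*MLC1* codes for the light chain that binds Iqg1, Myo1 and the type V myosin Myo2. It had the highest level of the 9, and its lowest library was 6.85 times the highest value of any of the other 8 genes. It was at 2522, 2197 and 2088 FPKM in unstimulated and at 2608, 2547 and 2367 FPKM in stimulated MATa libraries, where the groups overlap (log2 change 0.15 ± 0.09, adjusted p = 0.163). In MATα-playing-a cells it was at 2137, 1971 and 2222 FPKM without and 2369, 2840 and 2504 FPKM with α-factor, with no overlap (0.28 ± 0.09, adjusted p = 0.0142). Neither call was firm: the rise in MATα-playing-a cells did not pass without unstimulated replicate 2 (adjusted p = 0.0564), without stimulated replicate 2 (0.0595) or with quantile normalisation (0.0535). In MATa cells *MLC1* passed as higher without unstimulated replicate 1 (0.0429) and after median-ratio rescaling (0.0299).

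*CYK3* codes for an SH3-domain protein that promotes septum synthesis. It was at 233, 283 and 233 FPKM in unstimulated and at 154, 158 and 161 FPKM in stimulated MATa libraries. In MATα-playing-a cells it was at 230.4, 287 and 249 FPKM without and 172, 189 and 174 FPKM with α-factor. It fell 1.59-fold and 1.43-fold in the means, with no overlap of the groups (log2 changes -0.66 ± 0.10 and -0.51 ± 0.10; adjusted p = 8.7e-05 and 5.2e-04). Replicate 2 was the highest unstimulated library of *CYK3* in both strains.

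*INN1* codes for the protein that binds the SH3 domains of Hof1 and Cyk3 and is needed for the membrane to close in. It was at 185, 188 and 230.2 FPKM in unstimulated and at 164, 168 and 201 FPKM in stimulated MATa libraries, which overlap (log2 change -0.17 ± 0.14, 95% interval -0.48 to 0.13, adjusted p = 0.29). In MATα-playing-a cells it was at 208, 200.1 and 198 FPKM without and at 178, 128 and 184 FPKM with α-factor. Those groups did not overlap, yet the change of -0.32 ± 0.14 did not pass (95% interval -0.63 to -0.02, adjusted p = 0.0585). It did pass without stimulated replicate 1 (adjusted p = 0.0466), without stimulated replicate 3 (0.0299) and without unstimulated MATa replicate 3 (0.0498), with quantile normalisation (0.0354) and with either replicate block (0.0314 and 0.0286). *HOF1* and its binding partner *INN1* were, without pheromone, at 138 ± 12.4 and 201 ± 25.5 FPKM in MATa cells (SD, n = 3), and with it at 5.81 ± 0.687 and 178 ± 20.3 FPKM.

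**Figure D3:**
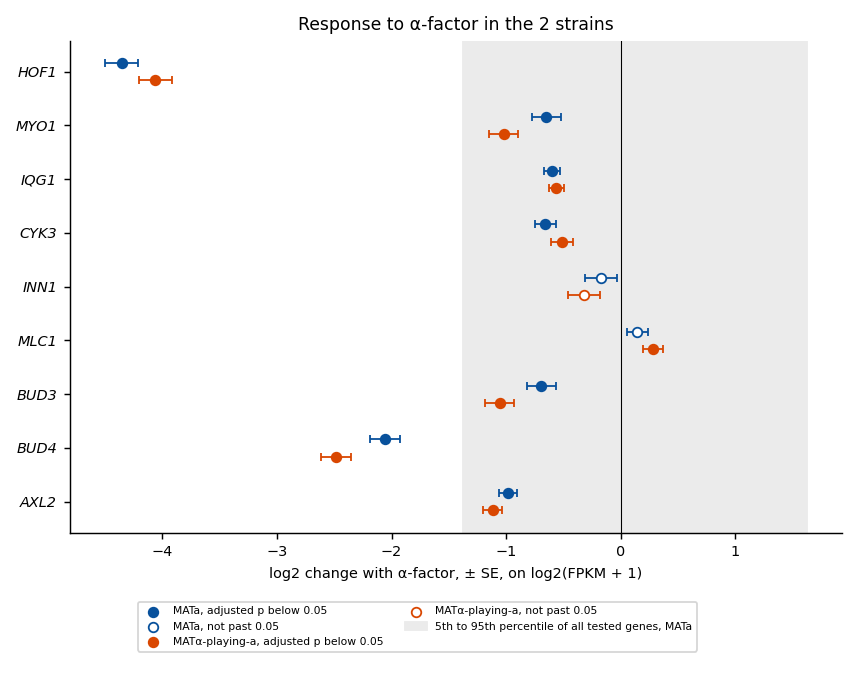
Log2 change with α-factor (x axis, on log2(FPKM + 1)) ± SE for each gene in MATa (blue) and MATα-playing-a cells (orange); filled points passed an adjusted p of 0.05, and the grey band spans the 5th to 95th percentile of all tested genes in MATa cells, -1.38 to 1.63. *HOF1* and *BUD4* lie outside the band in both strains, and *INN1* and *MLC1* lie nearest to 0.

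Of the axial landmark genes, *BUD4*, which codes for an anillin-like protein at the septin ring, fell most. It was at 85.7, 87.9 and 89.9 FPKM in unstimulated and at 21.4, 19.2 and 20.5 FPKM in stimulated MATa libraries. The MATα-playing-a values were 102, 94.9 and 112 FPKM without and 20.5, 14 and 19.0 FPKM with α-factor. The means fell 4.32-fold and 5.79-fold, with no overlap (log2 changes -2.06 ± 0.13 and -2.48 ± 0.13; adjusted p = 1.3e-07 and 2.9e-08).

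*BUD3* codes for the landmark protein that acts as an exchange factor for Cdc42. It was at 48.7, 55.5 and 50.6 FPKM in unstimulated and at 31.8, 29.3 and 33.7 FPKM in stimulated MATa libraries. Its level in MATα-playing-a cells was 61.8, 65.2 and 63.2 FPKM without and 31.1, 24.6 and 35.1 FPKM with α-factor. The groups did not overlap, and the log2 changes were -0.69 ± 0.12 (adjusted p = 4.7e-04) and -1.06 ± 0.12 (adjusted p = 1.7e-05).

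*BUD3* and *BUD4*, whose products act together at the neck, changed places. *BUD4* was at 1.76, 1.58 and 1.78 times the FPKM of *BUD3* in unstimulated MATa libraries and at 0.673, 0.656 and 0.607 times in stimulated ones. In MATα-playing-a cells the ratios were 1.65, 1.46 and 1.78 without and 0.657, 0.567 and 0.540 with α-factor. The ratio was above 1 in all 6 unstimulated libraries and below 1 in all 6 stimulated ones. *HOF1* was likewise at 2.65 to 3.21 times the FPKM of *MYO1* in the 6 unstimulated libraries and at 0.195 to 0.345 times in the 6 stimulated ones. Both ratios were chosen after the values were seen and were not tested.

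*AXL2* codes for the transmembrane landmark protein. It was at 252, 271 and 265 FPKM in unstimulated and at 123, 134 and 140.2 FPKM in stimulated MATa libraries. In MATα-playing-a cells it was at 259, 288 and 282 FPKM without and at 139, 117 and 125 FPKM with α-factor. The means fell 1.98-fold and 2.18-fold, with no overlap (log2 changes -0.98 ± 0.08 and -1.12 ± 0.08; adjusted p = 7.9e-07 and 2.9e-07). The 3 landmark genes thus fell in both strains, by 1.63-fold to 5.79-fold in the means.

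Between the strains none of the 9 genes passed, whether without α-factor (lowest adjusted p = 0.377, where 0.953% of all tested genes passed) or with it (lowest adjusted p = 0.208, where 2.21% passed), and at an unadjusted p below 0.05 there was 1 of the 9 in each comparison, *BUD3* and *HOF1*, beside 12.5% and 11.3% of all tested genes. Without α-factor *MYO1*, *BUD3* and *BUD4* were higher in every MATα-playing-a library than in every MATa library, 3 of 9 genes against 8.94% of all tested genes, and 0 of 9 were lower (9.76%). *BUD3*, for example, was at 61.8 to 65.2 against 48.7 to 55.5 FPKM (log2 difference 0.29, 95% interval 0.02 to 0.57). With α-factor it was *HOF1*, *IQG1* and *CYK3* that were higher in every MATα-playing-a library, 3 of 9 against 10.8%, with 0 lower (7.48%). *HOF1* was at 6.89 to 10.3 against 5.03 to 6.34 FPKM (log2 difference 0.45, interval 0.14 to 0.77, adjusted p = 0.208). This direction for *HOF1* rests on the scale, as quantile normalisation turned it to -1.11 (adjusted p = 0.0452); over all tested genes that setting called 90 genes higher and 66 lower in this comparison, in place of 103 and 43. The intervals of the 9 differences ran from -0.30 to 0.57 without and from -0.49 to 0.77 with α-factor, so that differences of up to these sizes are not shut out by a p that misses the threshold.

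The responses of the strains did not differ past the threshold for any of the 9 genes (limma on the difference of the responses, lowest adjusted p = 0.417; 0.484% of all tested genes passed). At an unadjusted p below 0.05 there was 1 of the 9, *BUD4*, beside 11.7% of all tested genes; its difference of responses was -0.42 on the log2 scale (95% interval -0.83 to -0.02). For *MYO1* and *BUD3* the falls differed by 0.37 in the same direction, with intervals of -0.76 to 0.02 and -0.75 to 0.02. The 3 comparisons share libraries with one another and with the responses above.

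**Figure D4:**
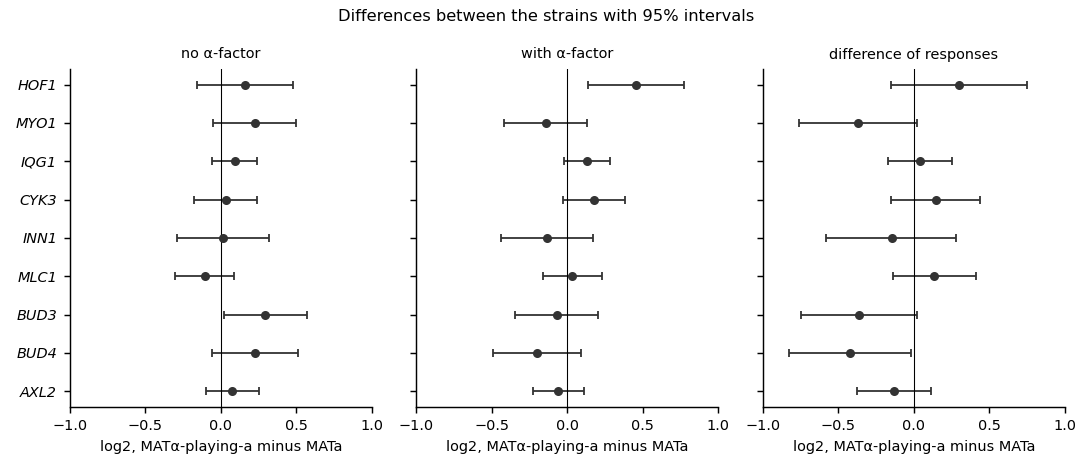
Log2 differences between the strains (x axis, MATα-playing-a minus MATa) with 95% intervals for each gene without α-factor, with α-factor and for the difference of the responses. Points left of 0 in the right panel are larger falls in MATα-playing-a cells; *BUD4* has the lowest, -0.42, and none of the 9 passed after adjustment.

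Ordered by mean level, 8 of the genes had the unstimulated MATα-playing-a group first and the unstimulated MATa group next. The ranges of these neighbouring groups overlapped for *HOF1*, *IQG1*, *CYK3*, *INN1* and *AXL2* and did not for *MYO1*, *BUD3* and *BUD4*. *MLC1* had the unstimulated groups last. It ran from 2571 ± 242 FPKM in stimulated MATα-playing-a to 2110 ± 128 in unstimulated MATα-playing-a libraries (SD, n = 3), with each group overlapping its neighbour. For *INN1* all neighbouring groups overlapped too.

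Across the 12 libraries, which fall into 4 groups, log2 values of the 7 genes that fell correlated with one another at r = 0.84 to 0.99 (21 pairs), *INN1* with them at 0.44 to 0.73, and *MLC1* with the other 8 at -0.85 to -0.71. The 7 were grouped by their calls in these same libraries, so such correlations follow from the calls and add no separate evidence. The genes outside the 9 whose values were most like those of *HOF1* were *SWI5*, a transcription factor gene (r = 0.997), the telomerase RNA gene *TLC1* (0.997) and *RTT107* (0.996). For *BUD4* they were *CHS2* (0.996), *BBP1* (0.995) and *NUD1* (0.995), and those named for *AXL2* are *SCW4* (0.996) and *NOP1* (0.995). For *IQG1* they were *DSE4* (0.996), *RRM3* (0.994) and *PHO84* (0.990), for *MYO1* *PMS1* (0.990), *POL12* (0.982) and *HIR3* (0.982), and for *BUD3* *NUP170* (0.996), *STO1* (0.990) and *RPA190* (0.989). *CYK3* was most like *ERC1* (0.982), *MMT1* (0.981) and *ESC2* (0.979). *INN1* had less close matches, *IOC2* (0.940), *GNP1* (0.922) and *AFT1* (0.903), as had *MLC1*, with *FMP32* (0.962), *SKP1* (0.961) and *COG7* (0.953). With α-factor 66.6% of all tested genes passed in MATa and 68.9% in MATα-playing-a cells, so many genes share the split by treatment. How many reach such r values was not counted, and a specific link to the genes named was not tested.

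The other genes of bud-site selection moved in both directions. Of 8 genes 5 fell and 1 rose in each strain. Beside this and the lists below, 38.1% of all tested genes fell and 28.5% rose in MATa cells, and 39.1% fell and 29.8% rose in MATα-playing-a cells. *BUD9*, which marks the proximal pole in the bipolar pattern of diploid cells, fell from 190 ± 16.3 to 56.9 ± 3.17 FPKM in MATa cells (log2 change -1.72 ± 0.10, adjusted p = 5.5e-08) and from 223 ± 6.69 to 59.6 ± 7.96 in MATα-playing-a cells (-1.89 ± 0.10). *BUD8*, its counterpart at the distal pole, was at 123 ± 5.44 and 120 ± 5.21 FPKM in MATa cells and did not pass in either strain (log2 changes -0.03 and -0.07; adjusted p = 0.703 and 0.456). *RAX2*, which acts with both poles' markers, fell 2.92-fold and 2.68-fold, and *RAX1* by 1.42-fold and 1.72-fold. Of the GTPase module shared by all budding patterns, the Ras-like gene *RSR1* fell 2.23-fold and 2.00-fold and its GAP gene *BUD2* 1.52-fold and 1.72-fold. The exchange factor gene *BUD5* had log2 changes of 0.06 (adjusted p = 0.577) and 0.34 (adjusted p = 0.00496); it overlaps *MATALPHA2* in the files, and *RSR1* overlaps YGR151C, so that their reads may be shared.

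*AXL1*, the protease gene that axial budding needs and that also matures a-factor, was the gene of this list that passed between the strains. It was at 187, 183 and 159 FPKM in unstimulated MATa and at 133, 121 and 109 FPKM in unstimulated MATα-playing-a libraries (log2 difference -0.54, adjusted p = 0.00727, and 0.213 in a fit of those groups alone). With α-factor it was at 243, 245 and 231 against 126, 125 and 125 FPKM (-0.93, adjusted p = 4.3e-05). It rose in MATa cells (log2 change 0.44 ± 0.08, adjusted p = 5.6e-04) and did not pass in MATα-playing-a cells (0.06 ± 0.08, adjusted p = 0.563), and the difference of these responses did not pass (adjusted p = 0.255). In MATa cells *AXL1* thus moved opposite to *BUD3*, *BUD4* and *AXL2*.

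Among 14 partners of the ring and the septum, MATa cells had 6 genes higher and 3 lower, and MATα-playing-a cells 7 higher and 6 lower. *AIM44*, which codes for a bud-neck protein that binds Hof1, fell 6.22-fold and 6.51-fold, from 167 ± 10.9 to 26.8 ± 2.63 FPKM in MATa cells (adjusted p = 2.1e-09). *CHS2*, the chitin synthase of the primary septum, fell 3.57-fold and 4.44-fold. *RHO1*, the GTPase that drives wall synthesis and ring assembly, rose 2.03-fold and 2.26-fold, from 2816 ± 242 to 5721 ± 281 FPKM in MATa cells, and *VRP1*, which codes for verprolin and overlaps YLR338W, rose 2.18-fold and 2.19-fold. The list's median log2 change was 0.06 and 0.02.

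Of 10 septin and bud-neck kinase genes 6 fell and 1 rose in MATa cells, and 7 fell and 1 rose in MATα-playing-a cells (medians -0.28 and -0.26). The kinase genes held the largest falls, *GIN4* by 3.79-fold and 3.89-fold, *KCC4* (which overlaps YCL023C and YCL022C) by 3.03-fold and 3.53-fold and *HSL1* by 1.85-fold and 1.92-fold. The septin gene *CDC12* had log2 changes of -0.05 (adjusted p = 0.729) and -0.37 (adjusted p = 0.0148; 0.0548 without stimulated MATα-playing-a replicate 2 and 0.0599 after median-ratio rescaling). Of 11 mitotic exit genes 5 fell and 2 rose in MATa cells and 6 fell and 2 rose in MATα-playing-a cells. Their median log2 changes were -0.143 and -0.205, beside -0.095 and -0.101 over all tested genes. *NUD1*, a scaffold gene of the pathway, fell 2.45-fold and 3.10-fold, the polo kinase gene *CDC5* 2.84-fold and 2.70-fold and the checkpoint gene *BFA1* 1.40-fold and 1.90-fold, while the kinase gene *DBF2* rose 1.82-fold and 1.97-fold.

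Of 10 daughter separation genes 8 fell and 2 rose in MATa cells, and 7 fell and 2 rose in MATα-playing-a cells (median log2 changes -1.42 and -1.38). The fall of *EGT2*, a wall gene of daughter cells, was 29.1-fold and 18.4-fold, that of *DSE4*, a glucanase gene, 5.01-fold and 4.32-fold, that of *DSE3* (which overlaps YOR263C) 4.40-fold and 4.72-fold and that of *SUN4* 4.15-fold and 3.43-fold. All 7 genes of G2/M transcription fell in both strains (medians -1.01 and -1.22), among them the cyclin genes *CLB1* (14.2-fold and 10.1-fold) and *CLB2* (6.05-fold and 5.26-fold), *SWI5* (14.1-fold and 13.1-fold) and the coactivator gene *NDD1* (1.89-fold and 2.34-fold). The forkhead letters were held within 300 bases by 3 of these 7 genes and 6 of 11 mitotic exit genes. They were also held by 1 of 14 ring and septum partners, 1 of 10 septin and bud-neck kinase genes and 0 of 8 bud-site genes. The match of *NUD1* and that of *NDD1* are 1 site between these genes (chrXV:1036699-1036705), and that of *SWI5* began at -301, outside the window. Of the 415 tested genes with the forkhead letters 49.6% fell in MATa cells, beside 38.0% of the 5465 without, and 52.5% beside 39.0% in MATα-playing-a cells. An excess of falls was not particular to these letters: of 208 tested genes with the MCB letters within 300 bases 61.5% and 61.1% fell, beside 38.0% and 39.2% of the 5672 without. The other motifs searched showed no such excess. Genes with TGAAACA fell in 33.8% and 38.3%, beside 39.2% and 40.1% without, and those with the Mcm1 motif in 31.5% and 32.2%, beside 39% and 40.1%. Holders of the forkhead letters moved both ways: *DBF2* rose, and *FIG1*, a membrane protein gene of mating, was at 12 to 22.7 FPKM without and at 10174 to 11572 FPKM with α-factor in MATa cells.

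**Figure D5:**
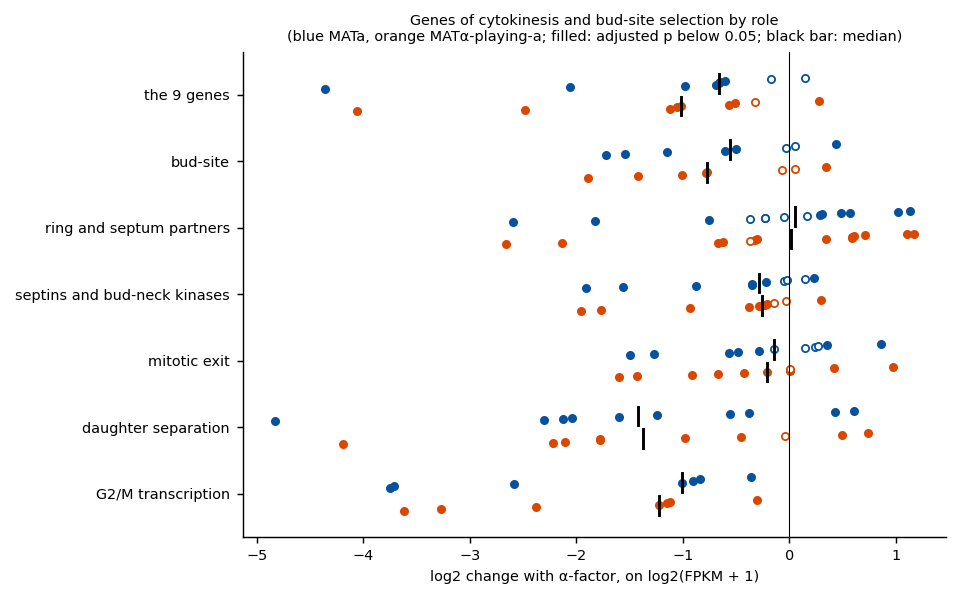
Log2 change with α-factor (x axis, on log2(FPKM + 1)) of the 9 genes and of 6 lists of related genes in MATa (blue) and MATα-playing-a cells (orange); each point is a gene, filled where the adjusted p was below 0.05, and black bars are list medians. The medians of the 9 genes are -0.66 and -1.02, and those of the ring and septum partners lie near 0.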

How the data were processed

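Per the labels, hot acid phenol was used to extract the RNA, and 1 lane held the 12 libraries. The authors deposited an FPKM value per gene and library. Cufflinks 0.9.3, TopHat 1.1.4 and CASAVA 1.8.2 are listed in the submitters' processing notes; the genome build and read strand are not given in the sources used here. FPKM times gene length summed to 5.02 to 6.225 times the total the unit allows, so the values carry a further scaling of unknown source. Low values showed no step of whole reads (strongest signal 3.441, and 4.206 in blurred values), so depth and counting error are unknown. Of the gene identifiers 6048 matched R64 locus tags, 5994 of them with equal coordinates.

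Values entered as log2(FPKM + 1), unfiltered except for a mean of at least 1 FPKM. A single model of the 4 group means over all 12 libraries was fitted in limma 3.58.1 (R 4.3.3, eBayes with trend), with 5 contrasts, p-values 2-sided. Folds are ratios of mean FPKM. Figures, counts and motif searches used Python 3.11.15, pandas 2.3.3 and pysam 0.24.0. On simulated data of 6608 genes with 200 of at least 10 FPKM shifted in the stimulated MATa libraries, 95% of shifts of 1 and 63.7% of shifts of 0.5 on the log2 scale were recovered. In the data 4403 genes passed in the MATa response, far more than the 200 shifted, and the simulated noise was independent between genes. The rates are thus not the sensitivity of the responses above.

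The 9 genes and all lists were chosen with earlier results of these data known. Up to 4 genes with the largest change were named per list, all of the bud-site list, and the 3 most alike genes per member, of which 1 is not reported here; others are named only where they are examples or overlap. Replicates are those the labels call biological. Alternatives were pseudocounts of 0.1 and 10, no filter (genes at 0 throughout left out), a mean of at least 10 FPKM, median-ratio and quantile scaling, a replicate block, a block by culture, fits to the compared groups alone, no trend, and each library left out in turn.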

Additional observations from a re-analysis of the deposited data

How the results depend on the processing

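The calls of the 7 genes that fell were kept in both strains under every alternative (highest adjusted p = 0.00405, *MYO1* in MATa cells); 7 of the 9 were lower in each fit of MATa cells, and 7 or 8 in those of MATα-playing-a cells. The number higher in MATa cells went from 0 to 1 with median-ratio rescaling (*MLC1*), and over fits without 1 library it was 0 to 1; in MATα-playing-a cells it went from 1 to 0 with quantile normalisation, and was 0 to 1 without 1 library. With quantile normalisation the number lower in the strain comparison with α-factor went from 0 to 1, that of *HOF1* (-1.11); its difference of responses turned from 0.30 to -1.24, and *MLC1* turned to -0.036 and -0.002 in the same comparisons. The cause was not tested. Small values that did not pass also changed sign: with median-ratio rescaling *BUD8* to 0.056 in MATa and 0.031 in MATα-playing-a cells and *CDC12* to 0.042 in MATa cells, where the median over all genes moved from -0.09 to -0.005 and from -0.10 to -0.004 in the 2 strains, and with quantile normalisation *CDC12* to 0.042 and *BUD5* to -0.049 in MATa cells. Without 1 library the ranges that crossed 0 were, for the MATa response, -0.071 to 0.001 (*BUD8*) and -0.143 to 0.012 (*CDC12*); for the MATα-playing-a response, -0.015 to 0.126 (*AXL1*); for the strain difference without α-factor, -0.042 to 0.116 (*INN1*) and -0.055 to 0.124 (*CYK3*); with α-factor, -0.228 to 0.034 (*INN1*), -0.041 to 0.09 (*MLC1*) and -0.182 to 0.066 (*BUD3*); and for the difference of responses, -0.003 to 0.064 (*IQG1*) and -0.249 to 0.019 (*INN1*). Over all genes, 33 in place of 63 passed between unstimulated strains in a fit of those groups alone, 85 to 153 in place of 146 between stimulated strains without 1 library (85 without stimulated MATa replicate 1, 96 without stimulated MATα-playing-a replicate 1 and likewise without its replicate 3), and 21 to 46 in place of 32 in the difference of responses (21 without unstimulated MATα-playing-a replicate 2).

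Deviations from the group means, over all tested genes, were compared between treatments. Libraries with the same number correlated at 0.114, -0.019 and 0.202 in MATa and at -0.212, -0.082 and -0.077 in MATα-playing-a. Those with different numbers ran from -0.217 to 0.083 in MATa and from -0.117 to 0.19 in MATα-playing-a. Such weak correlations cannot show whether equal numbers mark the same culture. The main model left the libraries unpaired, and the block by culture took equal numbers as pairs. With the replicate block 4358 genes passed in MATa cells in place of 4403, and 4500 in place of 4554 in MATα-playing-a cells; with the block by culture 4321 and 4456 passed, and 15 in place of 32 in the difference of responses. Depth is unknown, so the counting error behind *HOF1* at 5.03 to 10.3 FPKM cannot be given.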
